A study of Gossypium hirsutum with 24 samples.

Results

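Cotton leaves that had been eaten for 48 h were set against leaves that had been eaten for 6 h, each measured against undamaged leaves of the same hour. For every probe set, which is a group of short probes that together read 1 transcript, the response to feeding is the mean log2 intensity in CBW-damaged leaves minus that in control leaves. The quantity described here is the response at 48 h minus the response at 6 h. It could be computed for 13836 of the 23972 probe sets, those with values at both times, and every one of these is a member. A positive difference means that the response was higher at 48 h than at 6 h, and it also equals the change in CBW-damaged leaves from the early to the late harvest minus the change in control leaves.

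Arrays of 4 groups enter the comparison, with 3 arrays a group and 12 of the 24 arrays of the series. CBW-damaged leaves of 48 h came from upland cotton, Gossypium hirsutum cv. CCRI12, with larvae of the cotton bollworm (CBW, Helicoverpa armigera, a leaf-chewing caterpillar) feeding without a break for 48 h. Control leaves of 48 h came from undamaged plants of the same cultivar, kept alike and harvested at the same time. CBW-damaged and control leaves of 6 h were made in the same way with feeding for 6 h. Each array stands for whole leaves pooled over 3 plants, so plant-to-plant differences within a pool are not seen. The labels give 7 larvae for a pool, and the methods give a larger number. Plants of all groups grew under 16 h of light and 8 h of dark. The 2 harvests lie 42 h apart, which is not a whole number of days, and no source used here gives the time of day of either. Time of day therefore cannot be told apart from hours of feeding in CBW-damaged leaves, or from the time elapsed in control leaves. Names come from the platform annotation and from the study's own tables, and 13.8% of the probe sets have a name, a list or a symbol there. The table of names was used only in part. All 806 measured probe sets with a name from that part were above control at 48 h, and 756 of them were above control at 6 h. That a named gene stood above control at 48 h therefore follows from the naming, and genes below control at 48 h are mostly without a name. A transcript without a name is given by its match in Gossypium raimondii (Gorai), a wild relative. Upland cotton carries 2 related genomes, and one probe set can read the copies from both. Some probe sets are marked by the maker as reading several related transcripts.

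Chewing releases plant defences in successive layers. Wounding and larval saliva set off calcium and jasmonate signals, and genes for toxins, proteinase inhibitors and repair enzymes follow. The phenylpropanoid pathway starts with phenylalanine ammonia-lyase (PAL), which turns phenylalanine into cinnamate. Its products feed lignin, phenolic acids and the flavonoid branch, which ends in flavonols, tannins and the red anthocyanins. Cotton leaves also make terpenoids, among them gossypol and its relatives, for which cadinene synthase gives the first dedicated hydrocarbon.

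The median intensities of the arrays lay within 358 to 396 in arbitrary units, but they differed with group. At 48 h every CBW array had a higher median than every control array. At 6 h replicates 2 and 3 of the CBW-damaged leaves lay below every control array, and replicate 1 lay above replicate 2 of the control leaves only. These offsets run in the direction of a higher response at 48 h, and their source was not tested. Pearson correlations of each array with the others of its group averaged 0.989 to 0.994 in CBW-damaged leaves of 48 h, 0.944 to 0.968 in control leaves of 48 h, 0.972 to 0.975 in CBW-damaged leaves of 6 h and 0.945 to 0.963 in control leaves of 6 h. Replicate 2 of the 6 h control leaves and replicate 2 of the CBW-damaged leaves of 48 h stood apart in the flavonoid genes, and the differences of the genes described there are also given without each of them. The tissue could be checked with few probe sets, since 1 named chlorophyll a-b binding protein and no named small subunit of Rubisco were measured. The chlorophyll a-b binding protein had intensities of 529, 561 and 579.5 in CBW-damaged leaves at 48 h and 169, 119.8 and 148 in control leaves at 48 h. At 6 h it had 513, 587 and 408 in CBW-damaged leaves and 210.3, 482 and 346 in control leaves. Its side at 48 h follows from the naming described above and is not a finding. The paper reports that almost all of its differentially expressed photosynthesis genes were down-regulated during feeding. Seed proteins, not expected in leaves, were sought by name, and 2 probe sets were measured. Both were called above control at 48 h and 1 at 6 h. Their side at 48 h again follows from the naming. Of these, Gorai.013G271900.1, whose name also covers lipid-transfer proteins, had 2550, 2295 and 2519 in CBW-damaged leaves at 48 h. Control leaves of 48 h had 41.0, 24.6 and 38.4. Its 6 h values were 939, 1487 and 722 with CBW and 66.5, 737 and 971 in undamaged leaves. What this means for the tissue was not tested.

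The response differed between the times in 4903 probe sets, or 35.4% of those tested, at an adjusted p of 0.05 or less from limma with Benjamini-Hochberg adjustment. It was higher at 48 h in 3270 (23.6%) and lower at 48 h in 1633 (11.8%). Without adjustment, 6293 had a p of 0.05 or less. The 2 directions depended on scaling. Quantile normalization gave 2598 higher and 2081 lower, and centring each array on its median gave 2443 higher and 2181 lower, so the share of calls in the higher direction was 66.7% as deposited, 55.5% and 52.8%. The median difference over all probe sets was 0.15 on the log2 scale as deposited, 0.03 with quantile normalization and 0.01 with centred arrays. Log2 differences below are on the deposited scale and carry that shift.

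At least 2-fold differences were called in 1383 probe sets that were higher at 48 h and 792 that were lower. At least 4-fold, the counts were 204 higher and 225 lower. For the 2-fold calls the scaling decided the balance, with 1046 higher and 1002 lower after quantile normalization and 992 higher and 1025 lower after centring. The calls end without a gap: the last probe set inside the threshold had an adjusted p of 0.04997 and a log2 difference of 0.53, and the first outside had 0.05003 and 0.32.

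On the deposited scale, the larger part of the higher calls came from genes that were depressed early. Of the 3270, 1734 were below control at 6 h and not called at 48 h, and 527 were lower at both times but less so at 48 h. A further 506 were called higher at 48 h only, 333 passed to the other side, and 74 were higher at both times and more so at 48 h. Among the 1633 lower calls, 736 were above control at 6 h and not called at 48 h, and 267 were higher at both times but less so at 48 h. In this direction 296 were called lower at 48 h only, 232 passed to the other side, and 58 were lower at both times and more so at 48 h. The other 140 of the 4903 were called at neither time on its own. At 48 h alone, 3117 probe sets (22.5%) were higher and 3026 (21.9%) lower in CBW-damaged than in control leaves. At 6 h alone, 3551 (25.7%) were higher and 5150 (37.2%) lower. All these counts are on the deposited scale, where the median response at 6 h was -0.14. That median was -0.09 with quantile normalization and -0.06 with centred arrays. Across the 13836 probe sets, which are not independent, the response at 48 h and the response at 6 h had a Pearson correlation of 0.65 and a Spearman correlation of 0.55, and 67.1% had the same sign. The 2 responses share no array.

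A response that turned over, called in opposite directions at the 2 times with the difference called too, was found in 232 probe sets (1.68%) that stood above control at 6 h and below it at 48 h, and in 333 (2.41%) with the opposite course. In 207 of the 232 and in 299 of the 333 the 3 CBW arrays lay wholly on one side of the 3 control arrays at 48 h and wholly on the other side at 6 h. Over all probe sets tested, whether called or not, 357 (2.58%) and 696 (5.03%) were arranged so. The 2 kinds differed in size: 75 of the 232 were at least 2-fold on both sides of 0, against 25 of the 333. Which kind was commoner depended on scaling, with 312 and 226 after quantile normalization and 315 and 230 with centred arrays. Leaving out 1 array gave 139 to 243 of the first kind and 166 to 390 of the second. Without replicate 2 of the 48 h CBW-damaged leaves the counts were 139 and 166, and the second was 181 without replicate 2 of the 48 h control leaves and 212 without replicate 3 of the 48 h CBW-damaged leaves.

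**Figure D1:**
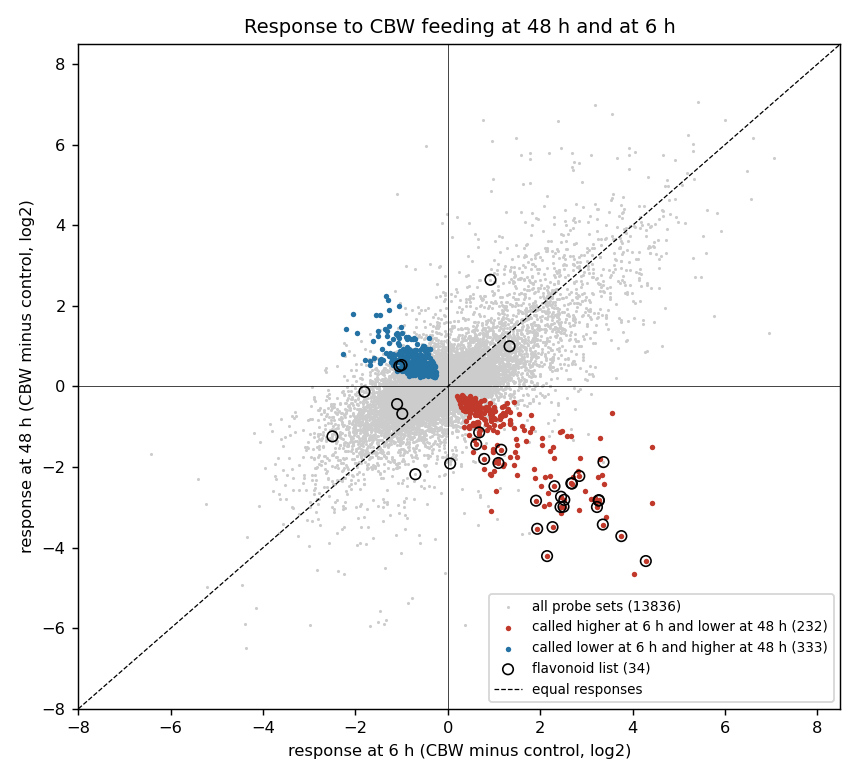
The response to CBW feeding at 48 h (vertical axis) against that at 6 h (horizontal axis), both CBW minus control on the log2 scale, for the 13836 probe sets (grey). Red points are the 232 called higher at 6 h and lower at 48 h, blue points the 333 with the opposite course, open circles the 34 probe sets of the flavonoid list, and the dashed line marks equal responses, with most flavonoid circles far into the lower right, at positive values at 6 h and negative values at 48 h.

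Because the difference is made of 2 changes, the change in each kind of leaf between the harvests was also tested. CBW-damaged leaves changed in 6166 probe sets (44.6%) and control leaves in 4372 (31.6%), of which 1875 were higher and 2497 lower at 48 h. Among the 1383 probe sets at least 2-fold higher, the change was called in CBW-damaged leaves only in 606, in control leaves only in 281, in both with opposite signs in 337, in both with the same sign in 116 and in neither in 43. The 792 that were at least 2-fold lower fell into 400, 174, 158, 39 and 21 in the same order. CBW-damaged leaves made the larger change in 907 (65.6%) of the higher and 513 (64.8%) of the lower.

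**Figure D2:**
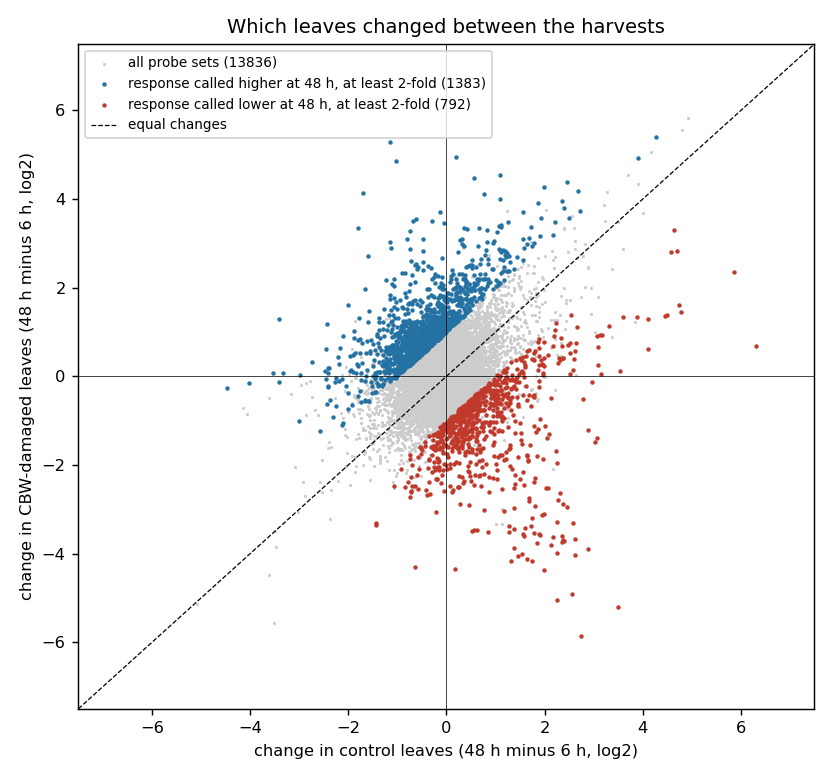
Change between the harvests (48 h minus 6 h, log2) in CBW-damaged leaves (vertical axis) and in control leaves (horizontal axis) for the 13836 probe sets. Blue points are the 1383 probe sets at least 2-fold higher in response at 48 h and red points the 792 at least 2-fold lower, grey points are the rest, and distance from the dashed line of equal changes is the response difference.

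The study's flavonoid and phenylpropanoid lists had the lowest median differences among the lists with 10 or more measured probe sets. Of 36 probe sets that the study assigned to the flavonoid pathway, 34 were measured, from 20 Gossypium raimondii genes. The response was lower at 48 h in 24 and higher in 5, with a median log2 difference of -4.93, beside 11.8% lower, 23.6% higher and a median of 0.15 over all probe sets. At 48 h, 27 of the 34 were lower and 2 higher in CBW-damaged than in control leaves, with a median response of -2.31. At 6 h, 25 were higher and 6 lower, with a median of 2.04. The response turned over in 23 of the 34, against 1.68% of all probe sets for the course from above to below control and 2.41% for the opposite one. In 23 the CBW arrays lay wholly above the control arrays at 6 h and wholly below them at 48 h, and in 1 they lay the other way round. The turn-over was called in 10 without replicate 2 of the 6 h control leaves and in 15 without replicate 2 of the 48 h CBW-damaged leaves. Of the 44 measured probe sets of the phenylpropanoid list, 26 had a lower and 4 a higher response at 48 h (median -1.40), against the same 11.8% and 23.6% over all probe sets. At 48 h, 24 of the 44 were below and 14 above control (median response -0.95), and at 6 h 9 were below and 32 above (median 1.98). The response turned over in 14, or 7 without replicate 2 of the 48 h CBW-damaged leaves or replicate 1 of the 48 h control leaves. The study chose both lists on these same arrays, so their direction is not independent evidence, and several probe sets read the same gene.

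PAL, at the entry of the pathway, was read by 4 probe sets from 2 genes, and all 4 were lower at 48 h with a median of -5.42. These 4 are also all of the study's list for salicylic acid biosynthesis, since salicylate can be made from cinnamate. One of 3 probe sets of the PAL gene Gorai.002G248000.1 had intensities of 509.6, 182 and 336 in CBW-damaged leaves at 48 h, against 2874, 1891 and 1926 in control leaves at 48 h. At 6 h its intensities were 2946, 3201 and 3165 in CBW-damaged leaves, against 1536, 113 and 278 in control leaves. At 48 h every CBW array was below every control array, and at 6 h every CBW array was above every control array, with a difference of -5.89 on the log2 scale (limma adjusted p = 0.00128, standard error 1.19). The other 2 probe sets of that gene had differences of -6.65 and -4.95. The one with -6.65 is dim, and raising values under the 20th percentile of an array to that percentile took away its call. The second PAL gene, Gorai.009G416300.1, did not turn over. Its response was 0.66 at 48 h and 2.93 at 6 h, with a difference of -2.26 on the log2 scale (limma adjusted p = 0.00913, standard error 0.62).

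Gorai.003G052100.1 of the phenylpropanoid list behaved like PAL. One of its probe sets had 46.7, 16.2 and 33.6 in CBW-damaged leaves at 48 h, against 362, 118 and 240.0 in control leaves at 48 h. In the 6 h leaves it read 1053, 734 and 1171 after CBW feeding and 151, 11.6 and 53.7 in controls. It separated at both times, with a difference of -7.29 on the log2 scale (limma adjusted p = 0.0006, standard error 1.33), and 2 further probe sets of the same gene had differences of -5.79 and -5.54. Caffeoyl-CoA O-methyltransferases add methyl groups to lignin precursors. The one named caffeoyl CoA O-methyltransferase 2 (Gorai.012G149800.1) had responses of 1.71 at 48 h and 2.71 at 6 h and did not pass the test (adjusted p = 0.0633), while isoform 1 (Gorai.N022200.1) was higher at 48 h by 1.22 with responses of 3.36 at 48 h and 2.13 at 6 h. Both have names from the part of the study's table in which every measured transcript was above control at 48 h, so their side at that time is not a finding. The call of isoform 1 was lost with quantile normalization (1.09) and with centred arrays (1.09). It was also lost without replicate 2 of any group but the 6 h CBW-damaged leaves, without replicate 3 of either CBW group and without replicate 1 of the 6 h CBW-damaged leaves (lowest 0.97). The 3 other phenylpropanoid members that were higher at 48 h, Gorai.004G264500.1, Gorai.009G291100.1 and Gorai.001G137800.1, had log2 differences of 1.39, 0.91 and 0.64, and all 3 were below control at 6 h.

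In the flavonoid branch few members have an enzyme name. The list member Gorai.007G194700.1 had intensities of 170.2, 100.2 and 136 in CBW-damaged leaves at 48 h, against 807, 1706 and 613 in control leaves at 48 h. At 6 h it had 1127, 1019 and 901 in CBW-damaged leaves, against 997, 72.8 and 269 in control leaves, with a difference of -4.74 on the log2 scale (limma adjusted p = 0.00154, standard error 0.99). The 2 kinds of leaf did not overlap at 48 h, where CBW-damaged leaves were lower. At 6 h the brightest control pool lay among the CBW-damaged pools. The list member LOC107930062 (Gorai.004G205900.1) had 1108, 183 and 681 in CBW-damaged leaves at 48 h, against 6673, 4823 and 5346 in control leaves at 48 h. After 6 h of feeding the values were 7097, 7216 and 9038 in CBW-damaged leaves, against 4282, 83.3 and 1210.5 in control leaves. It separated at both times in opposite directions, with a difference of -6.78 on the log2 scale (limma adjusted p = 0.00207, standard error 1.47).

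Among all flavonoid list members the largest difference was in Gorai.005G035100.1. It had 219, 26.0 and 131 in CBW-damaged leaves at 48 h, against 2569, 1306 and 1814 in control leaves at 48 h. The 6 h arrays gave 4591, 4939.7 and 6506 for CBW-damaged leaves, against 1262, 39.6 and 398 for control leaves. The difference was -8.62 (standard error 1.52, adjusted p = 0.000474), with a response of -4.33 at 48 h and 4.29 at 6 h. The brightest member, a probe set of Gorai.011G161300.1, had 3143, 564 and 2145 in CBW-damaged leaves at 48 h, against 9863, 6556 and 8816 in control leaves at 48 h. Its values at 6 h were 13216, 13091 and 14160.4 with CBW and 8059, 325 and 3497 in undamaged leaves. It also separated in opposite directions, with a difference of -5.10 on the log2 scale (limma adjusted p = 0.00293, standard error 1.17). Another probe set of the same gene had -6.10. Other members with a difference of that order were Gorai.008G062900.1 (-7.47), Gorai.009G175500.1 (-6.36), Gorai.012G014600.1 (-5.76) and Gorai.001G134900.1 (-5.33). LOC107945804, on neither list, took the same course with -5.92. The 5 flavonoid members that went the other way had log2 differences between 0.66 and 1.67, both from Gorai.002G250500.1. All 5 were below control at 6 h, and they read 3 genes. Gorai.009G200600.1 was read in both directions, with differences of 1.26 at one probe set and -5.49 and -5.19 at 2 others. The 1.26 fell to 0.13 and lost its call with the floor on dim values. With the floor 2 others of the 5 also lost their calls (both 0.07), and the one with 0.66 lost its call with quantile normalization (0.47), centred arrays (0.52), a pseudocount of 16 (0.44) and without 4 single arrays, namely replicate 1 of the 48 h CBW-damaged leaves and replicate 2 of each other group (0.59 to 0.62).

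**Figure D3:**
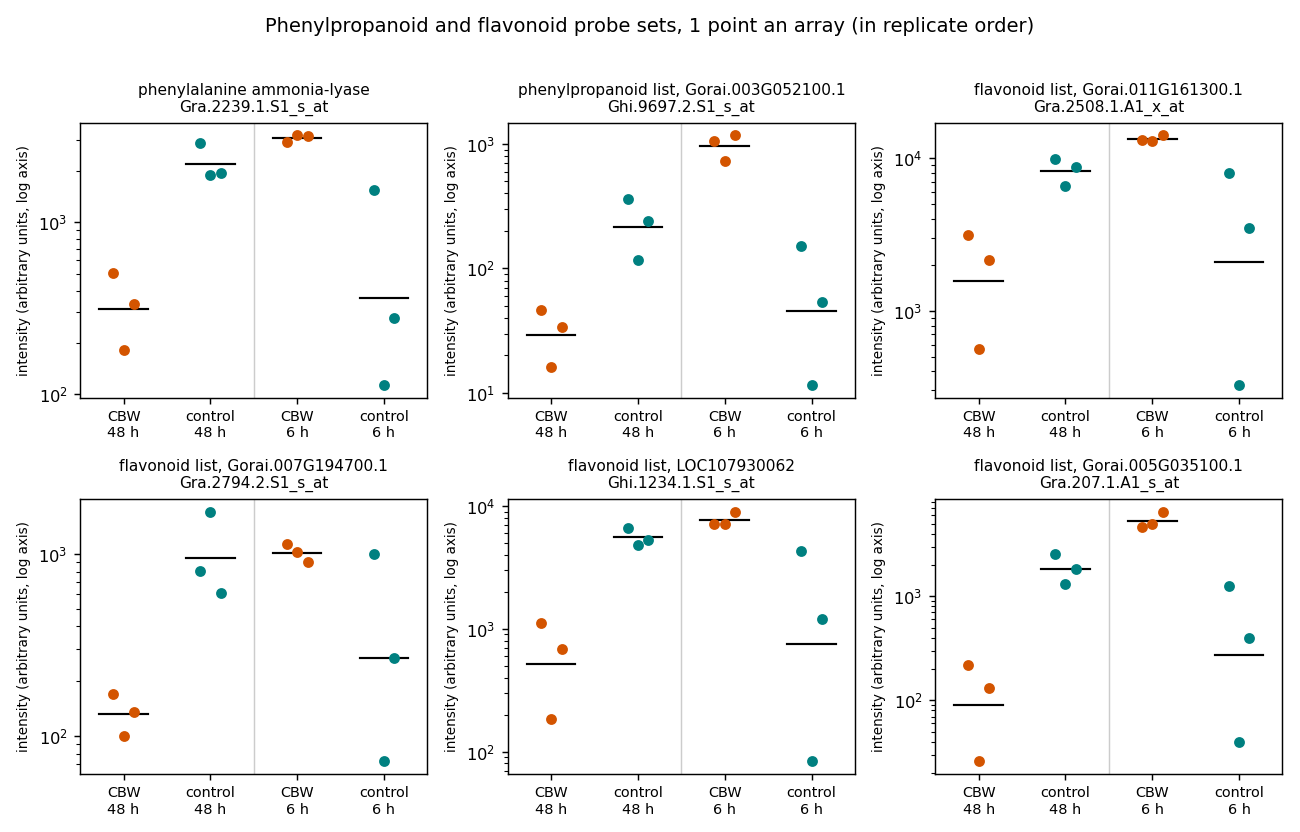
Intensity (arbitrary units, log axis) of 6 probe sets of the phenylpropanoid and flavonoid pathways on each array, with CBW-damaged and control leaves of 48 h at left and of 6 h at right. Points are arrays (n = 3 a group) and bars are means on the log2 scale. In each panel CBW-damaged leaves are below control leaves at 48 h, the 6 h control leaves spread widely between arrays, and their lowest point is replicate 2.

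The size of these responses rests in part on arrays that stood apart. Over the 24 flavonoid probe sets that were lower, the median SD of the 3 arrays on the log2 scale was 0.68 in CBW-damaged leaves of 48 h, 0.27 in control leaves of 48 h, 0.17 in CBW-damaged leaves of 6 h and 1.79 in control leaves of 6 h. Over all probe sets those medians were 0.10, 0.18, 0.20 and 0.18. Replicate 2 was the lowest 6 h control array in 24 of the 24 and the lowest 48 h CBW array in 23 of them. Without replicate 2 of the 6 h control leaves all 24 were still called lower, with a median difference of -4.28 in place of -5.29, but 10 rather than 24 were called higher at 6 h (median response 1.45 in place of 2.48, positive in all 24). Without replicate 2 of the 48 h CBW-damaged leaves all 24 were again called lower, and 15 rather than 23 were called lower at 48 h. Of the probe sets described above, Gorai.005G035100.1 had a difference of -7.23 without replicate 2 of the 6 h control leaves and -7.72 without replicate 2 of the 48 h CBW-damaged leaves. In the same order the differences were -5.05 and -5.49 for the PAL gene Gorai.002G248000.1, -6.31 and -6.86 for Gorai.003G052100.1, -3.80 and -4.54 for Gorai.007G194700.1, -5.19 and -6.03 for LOC107930062 and -3.75 and -4.36 for Gorai.011G161300.1. All 6 differences kept their call under both. Without the 6 h control array the response at 6 h was 0.97 for Gorai.007G194700.1, 1.76 for LOC107930062 and 1.34 for Gorai.011G161300.1, none of them called, and 2.90, 2.25 and 3.42 for Gorai.005G035100.1, the PAL gene and Gorai.003G052100.1, all called. Without the 48 h CBW array the response at 48 h was called for Gorai.005G035100.1 (-3.43) and Gorai.007G194700.1 (-2.63), and not for the PAL gene (-2.40), Gorai.003G052100.1 (-2.45), LOC107930062 (-2.68) or Gorai.011G161300.1 (-1.68). In all of these the remaining CBW arrays of 48 h still lay below every control array of 48 h. The fit uses 1 estimate of spread for all groups, which includes the widely spread 6 h control leaves, so a lost call at 48 h does not show that the fall rested on the array left out. The part of the spread of the control leaves in the turn-over at 6 h was not tested beyond these values.

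Outside these pathways the response fell away or was overtaken in single genes, mostly picked from their lists for large differences. Their lists did not all go that way, beside 23.6% higher and 11.8% lower over all probe sets. Of 36 bHLH factors 11 were higher and 7 lower. By name, 2 of 10 cytochrome P450 and 3 of 27 WRKY probe sets were lower and none higher. A gene of the gibberellin biosynthesis list, Gorai.002G038900.1, had 162, 59.3 and 129.8 in CBW-damaged leaves at 48 h, against 319, 474 and 192 in control leaves at 48 h. At 6 h its intensities were 1062, 2697 and 2549 in CBW-damaged leaves, against 169, 85.8 and 52.5 in control leaves. CBW-damaged leaves were below control leaves at 48 h and above them at 6 h with no overlap, with a difference of -5.92 on the log2 scale (limma adjusted p = 4.67e-05, standard error 0.78). Gibberellins are growth hormones. Of the 4 measured members of the list 2 were higher and 1 lower, too few to set against the 23.6% and 11.8% over all probe sets. A transcript of the ethylene biosynthesis list, Gorai.001G096300.1, had a response of 0.88 at 48 h against 4.31 at 6 h, with a difference of -3.43 on the log2 scale (limma adjusted p = 1.26e-05, standard error 0.39). A cytochrome P450 (Gorai.008G059000.1) had 1.54 at 48 h against 4.23 at 6 h. 3-ketoacyl-CoA synthase 7, of a family that lengthens fatty acids for waxes, had 1.82 at 48 h against 3.26 at 6 h. The bHLH factor Gorai.005G136000.1 had -0.65 at 48 h against 3.55 at 6 h, with a difference of -4.21 on the log2 scale (limma adjusted p = 2.3e-06, standard error 0.37). WRKY DNA-binding protein 40 (Gorai.009G124000.1), of a family of defence regulators, stayed above control at both times, with 2.82 at 48 h against 4.14 at 6 h.

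In some of the lower calls the control leaves changed more than the CBW-damaged leaves. The transcript named PIP2 protein (Gorai.006G166800.1) had 6167, 5801 and 5772 in CBW-damaged leaves at 48 h, against 2823, 2211 and 2051 in control leaves at 48 h. In the 6 h leaves it read 3723, 3880.3 and 3452 after CBW feeding and 35.0, 28.1 and 26.4 in controls. Between the harvests it changed by 0.68 in CBW-damaged leaves and by 6.30 in control leaves on the log2 scale, and the response difference was -5.62 (standard error 0.23, adjusted p = 2.24e-11). The stress-related gene Gorai.002G161000.1 changed in both kinds of leaf, by -3.66 in CBW-damaged and 2.63 in control leaves. It had 44.5, 29.1 and 44.1 in CBW-damaged leaves at 48 h, against 1549, 6554 and 1271 in control leaves at 48 h. After 6 h of feeding the values were 282, 1267 and 326 in CBW-damaged leaves, against 2700.4, 58.0 and 349 in control leaves. Its 6 h control arrays were far apart and overlapped the CBW arrays, while at 48 h the CBW arrays were lower without overlap, with a difference of -6.29 on the log2 scale (limma adjusted p = 0.005, standard error 1.57). The control leaves changed more in the CO-like factor Gorai.013G246000.1, of the family of the flowering regulator CONSTANS, with 0.62 in CBW-damaged and 4.11 in control leaves, and in the MYB-related factor Gorai.009G201700.1, with 1.45 in CBW-damaged and 4.77 in control leaves. The call of the MYB-related factor was lost without replicate 2 of the 6 h CBW-damaged leaves (-3.01) and with the floor on dim values (-0.85).

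Among the called probe sets that are bright enough and have a name or list, the largest positive difference was in an asparagine synthetase. The enzyme makes asparagine, an amide in which plants carry nitrogen. Glutamine-dependent asparagine synthase 1 (Gorai.001G117000.1) had 1937, 5044 and 3733 in CBW-damaged leaves at 48 h, against 54.0, 35.6 and 76.9 in control leaves at 48 h. The 6 h arrays gave 98.6, 154 and 40.5 for CBW-damaged leaves, against 47.6, 171 and 199 for control leaves. Its CBW arrays exceeded every control array at 48 h and lay among the control arrays at 6 h, with a difference of 6.44 on the log2 scale (limma adjusted p = 1.7e-05, standard error 0.76). Asparagine synthetase of the gene Gorai.006G105200.1 was read by 3 probe sets that were higher at 48 h. The one with the largest difference had a response of 6.10 at 48 h and 0.96 at 6 h, with a difference of 5.14 on the log2 scale (limma adjusted p = 0.000438, standard error 0.90). The smallest of the 3 differences was 3.90. Both genes changed mainly in the CBW-damaged leaves, by 5.29 for asparagine synthase 1 and 3.34 for that probe set of asparagine synthetase, against -1.15 for asparagine synthase 1 and -1.80 for asparagine synthetase in control leaves.

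Further genes with large positive differences included inhibitors of digestive enzymes and cell wall proteins. By name, 3 of 7 measured protease inhibitors and chitinases were higher and 1 lower, and of 6 peroxidases and laccases 1 was higher and 1 lower, beside 23.6% higher and 11.8% lower over all probe sets. All 7 and all 6 were called above control at 48 h, which the source of their names fixes. Without replicate 2 or 3 of the 6 h CBW-damaged leaves 2 of the 7 were higher, none of the 7 was lower without 8 of the 12 single arrays, and 3 of the 6 were higher without replicate 1 of either control group (2 without replicate 1 of the 6 h CBW-damaged leaves). A trypsin and protease inhibitor of the Kunitz family (Gorai.012G027700.1), which can block digestive enzymes of caterpillars, had 8382, 10106 and 9742 in CBW-damaged leaves at 48 h, against 247, 26.3 and 138 in control leaves at 48 h. Its values at 6 h were 409, 921 and 400.3 with CBW and 141, 391 and 569 in undamaged leaves. At 48 h the lowest CBW array exceeded the highest control array, while at 6 h the groups overlapped, with a difference of 5.85 on the log2 scale (limma adjusted p = 0.000412, standard error 1.01). A putative 21 kDa trypsin inhibitor, Gorai.011G254900.1, had a response of 3.44 at 48 h and 1.27 at 6 h. A proline-rich protein (Gorai.005G049700.1) had 2786, 4574 and 3896 in CBW-damaged leaves at 48 h, against 208, 46.9 and 254 in control leaves at 48 h. At 6 h it had 283, 84.5 and 85.0 in CBW-damaged leaves, against 183, 269 and 415 in control leaves, with a difference of 5.88 on the log2 scale (limma adjusted p = 3.98e-05, standard error 0.76). Secretory laccase, an oxidase of the cell wall, Gorai.009G287100.1, had a response of 5.79 at 48 h and 1.77 at 6 h. A receptor-like protein kinase-related protein, Gorai.011G065500.1, had 5.75 at 48 h and 1.58 at 6 h, with a difference of 4.17 on the log2 scale (limma adjusted p = 5.07e-05, standard error 0.56). A lipid-transfer or 2S albumin superfamily protein, Gorai.013G271900.1, had 6.18 at 48 h and 1.47 at 6 h, with a change of 1.29 in CBW-damaged and -3.42 in control leaves. It is 1 of the 2 probe sets found above by the names of seed proteins.

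Among the highest differences of genes with a name, list or symbol 1 was a fall that had eased. Genes below control at 48 h are mostly without a name, so such falls can be missed here. Over all higher calls, on the deposited scale, falls at 6 h that were smaller or not called at 48 h were the larger part. LOC107904848, which RefSeq also lists as EXPA3D, an expansin of the family that loosens cell walls, had 1066, 1411 and 1261 in CBW-damaged leaves at 48 h, against 3275, 4814 and 3852 in control leaves at 48 h. At 6 h its intensities were 38.1, 39.2 and 42.8 in CBW-damaged leaves, against 5173, 1727 and 4464 in control leaves. CBW-damaged leaves were lower at both times, by -1.67 at 48 h and -6.42 at 6 h, and the difference was 4.75 (standard error 0.90, adjusted p = 0.000812).

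**Figure D4:**
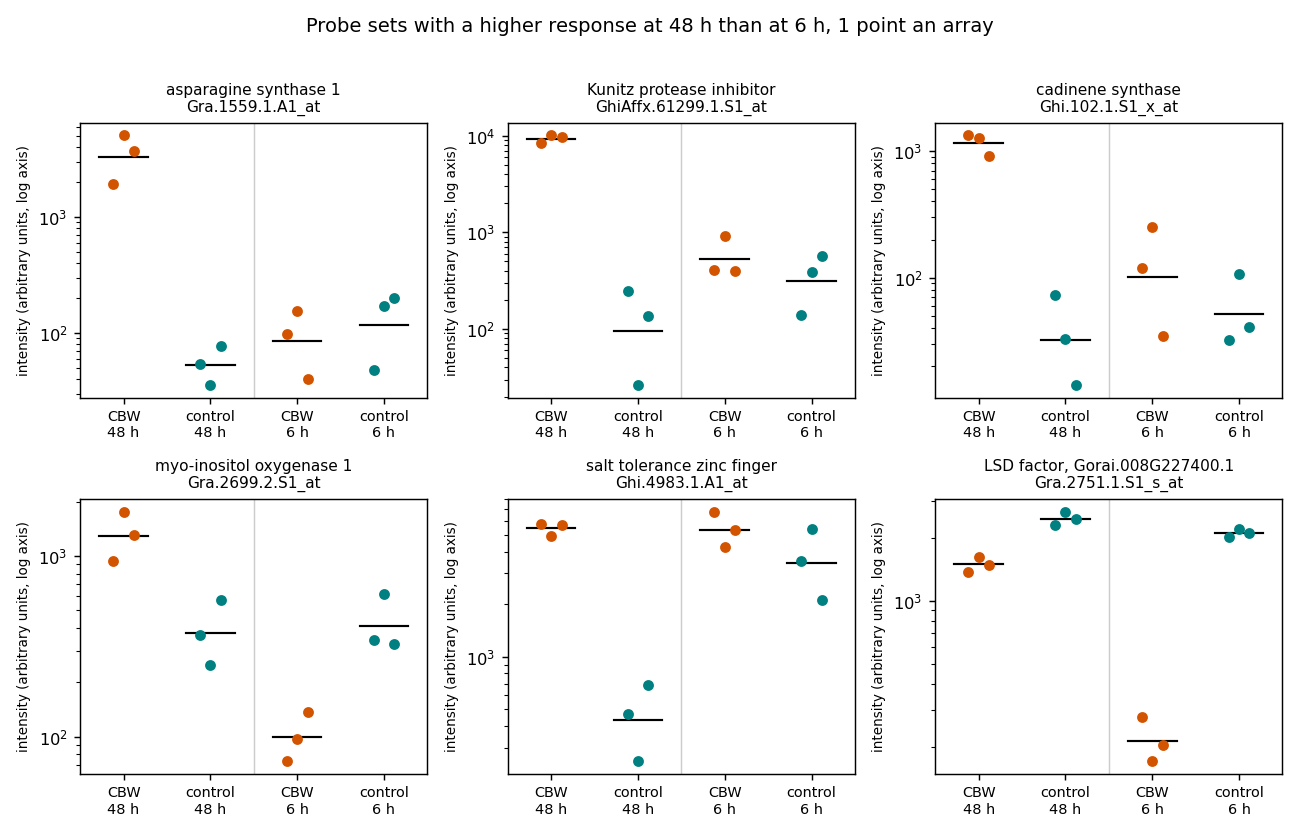
Intensity (arbitrary units, log axis) on each array of 6 probe sets whose response was higher at 48 h, with CBW-damaged and control leaves of 48 h at left and of 6 h at right. Points are arrays (n = 3 a group) and bars are means on the log2 scale. Asparagine synthase 1 and the Kunitz inhibitor show high CBW-damaged leaves at 48 h, myo-inositol oxygenase 1 changes sides, and the salt tolerance zinc finger has control leaves that are lower at 48 h.

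Genes that were below control at 6 h and above it at 48 h included enzymes of cell wall sugars. Values chose these 8 named genes, by the larger of the smaller responses, so their turn-over is a description. Myo-inositol oxygenase 1, which opens the inositol ring on the way to wall sugars (Gorai.011G069500.1), had 944, 1762 and 1313 in CBW-damaged leaves at 48 h, against 368, 248 and 569 in control leaves at 48 h. In the 6 h leaves it read 73.2, 97.6 and 138 after CBW feeding and 345, 617 and 324 in controls. The groups did not overlap at 48 h and their order was the reverse at 6 h, also without overlap, with a difference of 3.84 on the log2 scale (limma adjusted p = 9.27e-05, standard error 0.55). Beta-galactosidase of Gorai.001G011600.1, of a family that trims galactose from wall polymers, had responses of 2.16 at 48 h and -1.29 at 6 h. A second probe set of this gene had 2.99 at 48 h and -0.91 at 6 h, where the 6 h response was not called. Periplasmic beta-glucosidase, Gorai.006G259500.1, had 1.49 at 48 h and -1.27 at 6 h. The Pollen Ole e 1 allergen and extensin family protein Gorai.010G154300.1 had 1.33 at 48 h and -1.97 at 6 h. All of these differences were called (adjusted p of 3.92e-05 to 0.00155 from limma), which was a condition for choosing the 8 genes. Copper amine oxidase, which oxidises polyamines and releases hydrogen peroxide (Gorai.008G160800.1), had 1523, 1406 and 1468 in CBW-damaged leaves at 48 h, against 331, 396 and 386 in control leaves at 48 h. After 6 h of feeding the values were 569, 469 and 557 in CBW-damaged leaves, against 1079, 866 and 1414 in control leaves. Its arrays were close together and separated at both times in opposite directions, with a difference of 3.04 on the log2 scale (limma adjusted p = 2.3e-06, standard error 0.28). Ethylene-responsive transcription factor 11 (Gorai.008G232700.1) had 2.26 at 48 h and -1.35 at 6 h, a RING/U-box protein (Gorai.006G058500.1) had 1.90 at 48 h and -1.27 at 6 h, and aquaporin TIP1;4 (Gorai.007G372700.1), a water channel of the vacuole membrane, had 1.48 at 48 h and -1.02 at 6 h.

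For several named transcription factors the CBW-damaged leaves were nearly as high at 48 h as at 6 h, and the control leaves were lower at 48 h. The ones described here were picked after their values were seen. Salt tolerance zinc finger, whose Arabidopsis relative represses transcription under stress, had 5778, 4920.5 and 5691 in CBW-damaged leaves at 48 h, against 470.2, 251 and 687 in control leaves at 48 h. The 6 h arrays gave 6793, 4268 and 5306 for CBW-damaged leaves, against 3554, 5384 and 2112 for control leaves. It changed by 0.02 in CBW-damaged leaves and by -2.99 in control leaves, with a difference of 3.01 on the log2 scale (limma adjusted p = 0.00895, standard error 0.82). A second probe set of this gene, Gorai.002G132600.1, had -0.12 in CBW-damaged and -3.41 in control leaves and a difference of 3.29. It was called when replicate 1 or 3 of the 48 h control leaves or replicate 3 of the 6 h control leaves was left out, and not without any 1 of the other 9 arrays (2.58 to 3.74 over the 12), and the call was also lost with centred arrays (3.15). Redox responsive transcription factor 1 (Gorai.013G043700.1) had 0.08 in CBW-damaged and -3.54 in control leaves, and its difference of 3.62 lost its call without replicate 1 of the 48 h control leaves (3.19) or replicate 2 of the 6 h control leaves (3.29), and with the floor on dim values (2.01). The AP2/ERF factor Gorai.010G091100.1 had -0.14 in CBW-damaged and -4.02 in control leaves, and its difference of 3.88 was called without replicate 2 of the 48 h CBW-damaged leaves, replicate 1 of the 6 h CBW-damaged leaves or replicate 3 of either control group, and not without any 1 of the other 8 arrays (3.53 to 4.41 over the 12). These levels in undamaged leaves moved with the hour of harvest, and the part of time of day in them was not tested.

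The lists of growth hormones and of transcription factor families differed widely in how many members were called higher, from all 3 LSD probe sets to none of 6 SBP probe sets, beside 23.6% higher and 11.8% lower over all probe sets. Of 50 measured probe sets of the auxin signaling list, 20 were higher and 1 lower, with a median difference of 0.63. At 48 h 20 of the 50 were lower and 11 higher in CBW-damaged leaves (median response -0.38), against 36 lower and 8 higher at 6 h (median -1.07). With quantile normalization 17 were higher and 1 lower (median 0.53), and with centred arrays 17 and 1 (median 0.49). Gorai.010G031600.1 of this list had responses of -0.11 at 48 h and -2.28 at 6 h (adjusted p = 1.84e-05). Gorai.009G196100.1, an auxin response factor (ARF), was near control at 6 h (0.09) and well above it at 48 h (3.70). The 1 member that was lower (2 without replicate 1 of either 6 h group), Gorai.010G048200.1, had -1.08 at 48 h and 0.70 at 6 h.

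In gibberellin signaling 8 of 28 were higher and 3 lower (median 0.26), with 7 to 10 higher and 1 to 4 lower when 1 array was left out. Families of transcription factors differed in their counts. Among HD-ZIP factors, homeodomain proteins of leaf and vascular development, 7 of 14 were higher and none lower (median 0.79), and the brightest, Gorai.003G041500.1, had -1.15 at 48 h and -2.89 at 6 h. Trihelix factors, first known from light-responsive genes, were higher in 5 of 6 (median 1.57), with Gorai.009G253900.1 at 0.16 at 48 h and -2.18 at 6 h. TCP factors had 3 of 10 higher and none lower (median 0.13), or 2 to 4 higher when 1 array was left out. MYB factors had 6 of 36 higher and 5 lower (median -0.29), and 1 higher and 3 lower without replicate 2 of the 6 h CBW-damaged leaves (1 to 7 and 3 to 6 over the 12 arrays). Of 6 SBP factors none was higher and 1 lower. All 3 probe sets of LSD factors, which in Arabidopsis restrain cell death, were higher. The brightest of these (Gorai.008G227400.1) had 1369, 1625 and 1487 in CBW-damaged leaves at 48 h, against 2293, 2661 and 2451 in control leaves at 48 h. Its values at 6 h were 279, 171 and 205 with CBW and 2004, 2204 and 2101 in undamaged leaves. It was below control at both times without overlap, by less at 48 h, with a difference of 2.57 on the log2 scale (limma adjusted p = 1.02e-05, standard error 0.28). The CO-like factor Gorai.010G245200.1 had -0.21 at 48 h and -2.15 at 6 h, and the GRAS factor Gorai.008G068100.1, of the gibberellin signaling list, had 0.35 at 48 h and -2.63 at 6 h. Over all 484 measured transcription factor probe sets in 49 families, 133 (27.5%) were higher and 54 (11.2%) lower, beside 23.6% and 11.8% of all probe sets, so the families as a whole were close to the background.

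Other hormone lists gave mixed counts, several of them near the 23.6% higher and 11.8% lower of all probe sets. Cytokinin signaling had 11 of 32 higher and 3 lower (median 0.48), and brassinosteroids signaling 11 of 31 higher and 5 lower (median 0.51). The brassinosteroid counts were 7 and 3 without replicate 2 of the 48 h CBW-damaged leaves and 6 and 3 without replicate 3 of the 6 h control leaves, and 3 were lower without replicate 3 of the 48 h CBW-damaged leaves. Abscisic acid signaling had 3 of 15 higher and 4 lower (median 0.13, and -0.02 with quantile normalization). Jasmonate and ethylene are wound hormones. In jasmonic acid signaling 3 of 23 were higher and 2 lower (median -0.10), or 2 to 4 higher and none to 3 lower without single arrays. In jasmonic acid biosynthesis 4 of 36 were higher and 8 lower, with a median of -0.45. The 8 lower jasmonic acid biosynthesis probe sets rested on single arrays, with 2 left without replicate 2 of the 48 h CBW-damaged leaves, 3 without replicate 1 of the 48 h control leaves, 4 without replicate 3 of either 48 h group, replicate 2 of the 6 h CBW-damaged leaves or replicate 1 of the 6 h control leaves, and 5 without replicate 1 of the 6 h CBW-damaged leaves or replicate 3 of the 6 h control leaves. The 4 higher were 7 without replicate 1 of the 6 h control leaves. For ethylene biosynthesis 4 of 14 were lower and none higher (median -0.61), and for ethylene signaling 4 of 15 were lower and none higher (median -0.16), though 1 or 2 were higher without replicate 1 or 2 of the 6 h control leaves or replicate 2 of the 48 h control leaves. Gorai.008G143100.1, of ethylene signaling, had -0.70 at 48 h and 1.23 at 6 h, with a difference of -1.93 on the log2 scale (limma adjusted p = 1.15e-05, standard error 0.21). WRKY factors had 4 of 49 higher and 8 lower, with a median of 0.04 (-0.08 with quantile normalization) and median responses of 1.96 at 48 h and 2.08 at 6 h. The 8 were 5 without replicate 3 of the 48 h CBW-damaged leaves, replicate 1 of the 48 h control leaves, replicates 1 or 2 of the 6 h CBW-damaged leaves or replicate 3 of the 6 h control leaves. ERF factors had 13 of 64 higher and 13 lower. The study chose these lists on these arrays, so their directions are not independent evidence.

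**Figure D5:**
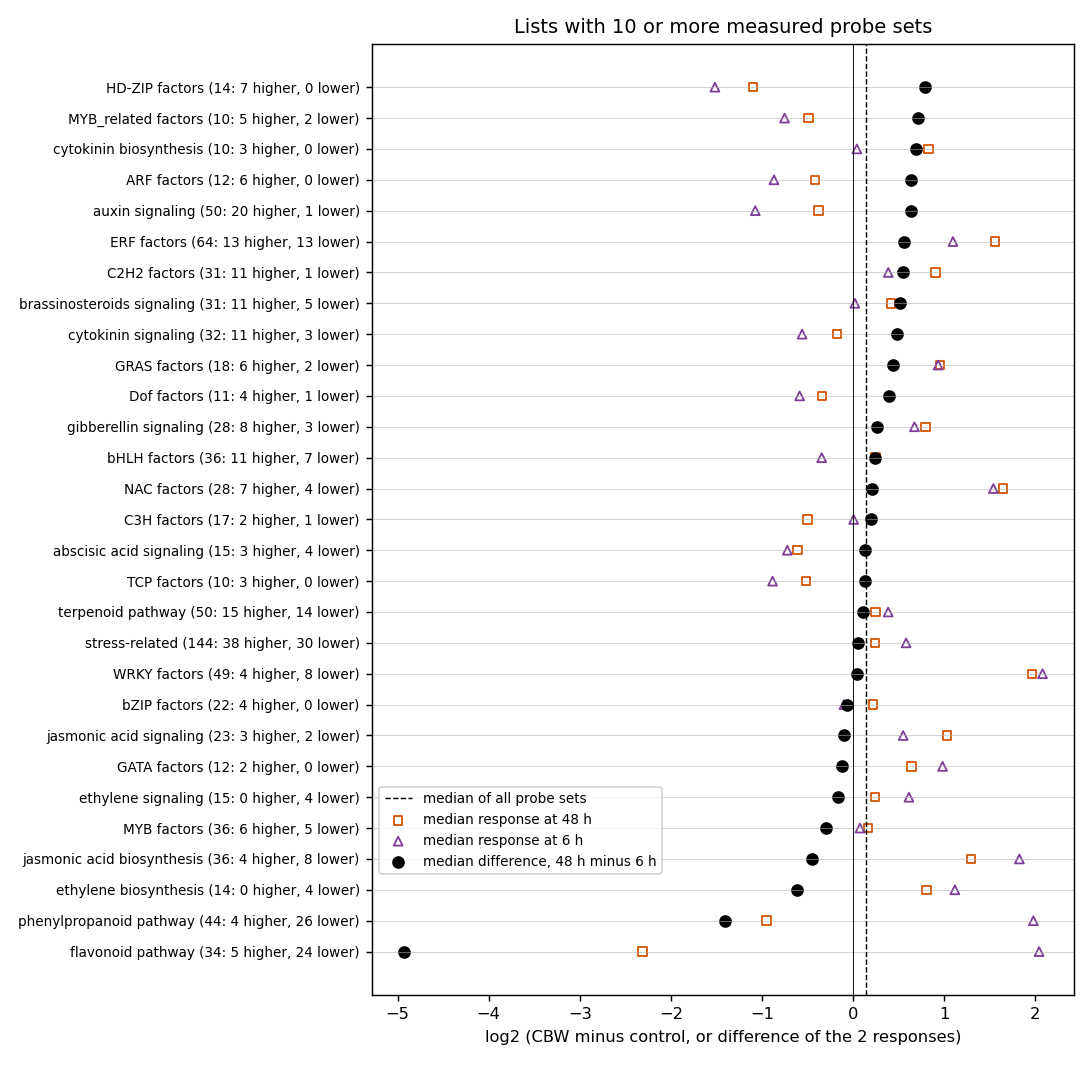
Median log2 values of the study's lists with 10 or more measured probe sets: the difference of the 2 responses (filled circles), the response at 48 h (open squares) and the response at 6 h (open triangles). Labels give the number measured and the numbers called higher and lower, and the dashed line is the median difference of all probe sets (0.15). The flavonoid list lies at -4.93 and the phenylpropanoid list at -1.40, to the left of the other lists, while auxin signaling lies at 0.63.

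Terpenoids give cotton its gossypol and part of its scent. Of 50 measured probe sets of the terpenoid list, 15 were higher and 14 lower (over all probe sets 23.6% and 11.8%), with a median of 0.10 (-0.01 with quantile normalization and -0.03 with centred arrays). Without replicate 2 of the 6 h control leaves 9 were lower. Cadinene synthase of Gorai.009G428400.1 had 1332, 1261 and 920.4 in CBW-damaged leaves at 48 h, against 73.4, 32.6 and 14.2 in control leaves at 48 h. At 6 h its intensities were 119.5, 252 and 34.7 in CBW-damaged leaves, against 32.1, 106 and 40.5 in control leaves. CBW arrays were above control arrays at 48 h and overlapped them at 6 h, with a difference of 4.19 on the log2 scale (limma adjusted p = 0.00366, standard error 0.99). Another cadinene synthase, of Gorai.013G164900.1, took the opposite course, with 2.45 at 48 h and 4.57 at 6 h (log2 difference -2.12, lost without replicate 1 of the 48 h control leaves, at -1.65). Of the members without an enzyme name, Gorai.011G102700.1 had 0.63 at 48 h and 2.74 at 6 h and was lower by the test (adjusted p = 0.00362). The member Gorai.006G009100.1 was below control at 48 h (-2.56) and not called at 6 h (1.53), with a difference of -4.09 on the log2 scale (limma adjusted p = 0.0114, standard error 1.17). That call was lost when dim values were raised to a floor (-2.45). In the mevalonate pathway upstream, hydroxymethylglutaryl-CoA synthase (Gorai.008G243100.1) was above control at both times, with 2.82 at 48 h and 1.44 at 6 h and a difference of 1.37 (limma adjusted p = 0.0387). This call held without replicate 1 of either control group and was lost without any 1 of the other 10 arrays (1.29 to 1.40), with quantile normalization (1.21) and with centred arrays (1.24).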

How the data were processed

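Whole leaves were measured on Affymetrix Cotton GeneChips, 1 array a sample. The authors computed signal intensities with MAS5 (version not given in the sources used here) and deposited them on a linear scale, scaled array by array to a target not given in the sources used here. Where the deposited table lacks a probe set on 1 array it lacks it on all 6 of that time. The sources used here state no rule for this, so a probe set expressed under few conditions can be missing. Intensities were taken to log2 with no pseudocount and fitted in limma 3.58.1 (R 4.3.3) to 8 group means over all 24 arrays, which share 1 estimate of spread (8 to 16 residual degrees of freedom). Contrasts were 2-sided, adjusted by the Benjamini-Hochberg method over 13836 probe sets and called at an adjusted p of 0.05 or less. The script was tested on simulated data. An exact permutation test of 3 arrays against 3 cannot give a p below 0.1. That the number of arrays is small limits the precision.

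Groups and replicate numbers came from the labels. Same-numbered CBW and control arrays did not deviate together (correlations of -0.07 to -0.02 at 48 h and -0.17 to 0.20 at 6 h), so the numbers were not used to pair samples.

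Named genes were called probe sets that have a name or list, with a group mean at or above the median array intensity of 379.61: the 12 largest differences each way, the 8 largest reversals each way, and up to 4 called members and the brightest member of each list. Some members, above all of the flavonoid and phenylpropanoid lists, were named beside these. The members and lists were chosen with earlier results of these data known.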

Additional observations from a re-analysis of the deposited data

Results flagged for a closer look

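The response to feeding at 48 h differed from that at 6 h, by limma's test of the difference itself, in 3270 probe sets that were higher at 48 h and 1633 that were lower. The response turned over in 232 probe sets from higher at 6 h to lower at 48 h and in 333 the other way, against 312 and 226 with quantile normalization and 315 and 230 with centred arrays, so the order of the 2 kinds depended on scaling.

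Of the named genes, 8 that were above control at 6 h and below it at 48 h had log2 differences of -8.62 (Gorai.005G035100.1, flavonoid list), -7.47 (Gorai.008G062900.1, flavonoid list), -7.29 (Gorai.003G052100.1, phenylpropanoid list), -6.78 (LOC107930062, flavonoid list), -6.10 (Gorai.011G161300.1, flavonoid list), -5.92 (LOC107945804), -5.89 (PAL) and -5.33 (Gorai.001G134900.1, flavonoid list). The opposite course had log2 differences of 3.84 (myo-inositol oxygenase 1), 3.60 (ethylene-responsive transcription factor 11), 3.44 (beta-galactosidase), 3.30 (Pollen Ole e 1 allergen and extensin family), 3.17 (RING/U-box), 3.04 (copper amine oxidase), 2.76 (periplasmic beta-glucosidase) and 2.50 (aquaporin TIP1;4). Genes below control at 48 h are mostly without a name, so the first 8 could come only from labelled probe sets, above all those on the study's lists.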

How the results depend on the processing

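Leaving out 1 array at a time gave 2557 to 3526 higher and 1230 to 1654 lower calls, 139 to 243 turns from higher at 6 h to lower at 48 h and 166 to 390 turns the other way. Leaving out replicate 2 of both control groups, an alternative chosen after seeing the data, gave 2667, 1403, 148 and 160, and the cause of the lower numbers of turns was not tested. Over the other settings (the 12 arrays alone, quantile normalization, centred arrays, a floor, a pseudocount of 16, bright probe sets only, an intensity trend and blocks), the counts of turns were 171 to 315 and 226 to 385. The replicate number as a block over all arrays gave 3194 higher, 1601 lower, 227 and 317, and as a block within each time 3508, 1799, 268 and 385. The next counts cover 113 probe sets with a name, list or symbol, most of them chosen as called members with large differences. Kept directions therefore follow in part from the choice. Under these settings 990 of 1011 results kept their direction and call and 21 lost the call. With arrays left out, 1356 of 1469 kept both and the rest lost the call, and no direction turned in either set. A floor at the 20th percentile of each array removed several calls of dim probe sets. It raises low values to 1 level and so shrinks their differences, and these calls depend on how low values are treated.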
